A study of Homo sapiens with 8 samples.

Results

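The genes described here are the human proteasome subunit genes, taken as every gene name made of PSMA to PSMG and a number, which gave 48 of the 55765 gene names in the deposited tables. Of these, 44 averaged at least 1 TPM (an abundance corrected for transcript length and brought to the same total in every library) and were tested, among 14650 genes in all. The libraries came from 2 leukaemia cell lines, NB4, which carries the PML-RARA fusion of acute promyelocytic leukaemia, and Kasumi-1, which carries RUNX1-RUNX1T1. Each line was sequenced once untreated and once at each of 6, 12 and 24 h of exposure to 40 uM chlorprothixene, an antipsychotic of the thioxanthene class. All cells grew in medium with 10% FBS, no vehicle is named, and the untreated library of a line serves all its times, so drug and time in culture cannot be told apart.

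The proteasome degrades proteins tagged with ubiquitin chains. Its 20S core is a barrel with outer rings of PSMA (alpha) and inner rings of PSMB (beta) subunits, of which only a few cut. The 19S regulatory particle, made of PSMC ATPases and PSMD subunits, binds and removes ubiquitin chains and unfolds the substrate, while PSME proteins form alternative caps that need no ubiquitin. PSMG and some PSMD proteins are assembly chaperones, and PSMF1 encodes the core-binding protein PI31. Inhibitors of the core are in clinical use against blood cancers.

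Between 13358 and 14582 gene names reached 1 TPM in a library. The files hold no counts, so depth is unknown; the ratio of coverage to FPKM, which follows depth if FPKM was scaled to all aligned bases, lay between 7.08 and 9.83. The 8 myeloid markers summed to 5600 TPM in untreated NB4 and 3802, 2809 and 2204 TPM at 6, 12 and 24 h, and to 12560 TPM in untreated Kasumi-1 and 16476, 12836 and 12380 TPM at those times. MPO made up most of these sums, with 4889 TPM in untreated NB4 and 3140, 2104 and 1528 TPM at 6, 12 and 24 h. In NB4, 5 of the 8 were below untreated at all 3 times and 1 above (32.2% and 30.6% of all genes). In Kasumi-1, 1 was below and 3 were above (36.0% and 28.2%). RUNX1T1, KIT and CD34 together reached at most 0.34 TPM in NB4 libraries, while in Kasumi-1 they held 654 TPM untreated and 172, 210 and 331 TPM at 6, 12 and 24 h. Of the other markers looked at for NB4, CTSG was higher in NB4 at every time, but PRTN3 and HGF were lower than in Kasumi-1. Markers of other cell types summed to at most 21.4 TPM (6 lymphoid genes), 4.28 TPM (6 erythroid genes, with HBB, HBG1 and HBA1 at 0) and 29.7 TPM (5 epithelial genes, mostly EPCAM). The Kasumi-1 library of 24 h stood apart: mitochondrially encoded genes took 8.73% of the TPM in untreated Kasumi-1 and 7.94%, 10.6% and 17.1% at 6, 12 and 24 h, while in NB4 they took 5.04% to 6.71%.

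In NB4 the proteasome genes as a set stayed near their untreated sum, and in Kasumi-1 nearly all of them stood lower with the drug. The 48 genes together held 8531 TPM in untreated NB4 and 8671, 8220 and 8219 TPM at 6, 12 and 24 h. In Kasumi-1 they held 8476 TPM untreated and 6285, 6523 and 5805 TPM at the same times. Untreated, the set thus took nearly the same share of the TPM in both lines, 0.853% in NB4 against 0.848% in Kasumi-1, and at 24 h it took 0.822% in NB4 against 0.581% in Kasumi-1. RUNX1T1, KIT and CD34 were also below untreated at all 3 times in Kasumi-1, 3 of 3 genes (36.0% of all genes). Their part in the lower proteasome sums was not tested. Fewer cells with a transcript and less of it per cell cannot be told apart in such bulk RNA.

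**Figure D1:**
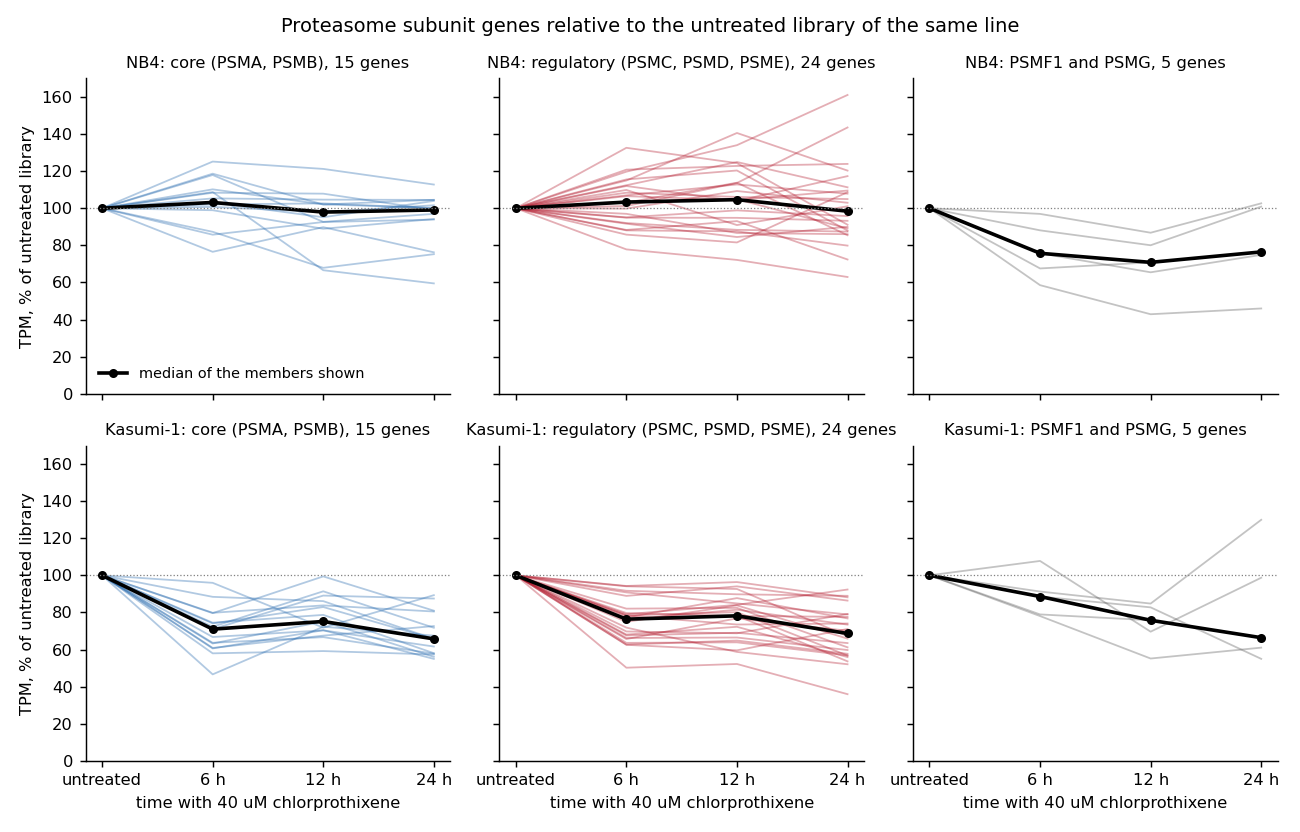
TPM of each tested proteasome subunit gene as a percentage of the untreated library of its line (y axis) against time with 40 uM chlorprothixene (x axis), for NB4 (upper row) and Kasumi-1 (lower row). Thin lines are the 15 core, 24 regulatory and 5 other genes and black points their median; the core and regulatory medians stay near 100% in NB4 and lie below it at every time in Kasumi-1.

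Of the 44 tested members, 15 were below and 13 above the untreated NB4 library at all 3 times, near the 32.2% and 30.6% of all genes. In Kasumi-1, 42 members were below untreated at all 3 times, against 36.0% of all genes, and 0 were above it at all 3 (28.2%). The exceptions were PSMG2 and PSMF1. Among the 39 members that averaged at least 50 TPM the count was 37, against 47.1% of the 3724 genes at such levels. The median member differed from untreated by 0.04, -0.03 and -0.02 in log2(TPM + 1) at 6, 12 and 24 h in NB4, and by -0.40, -0.37 and -0.58 in Kasumi-1. The median of all genes tested lay between -0.08 and 0.01 in these 6 libraries. In both lines at once, 13 members were below untreated at all 3 times (16.9% of all genes), and another 13 were above it in NB4 and below it in Kasumi-1 (6.70%).

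The Kasumi-1 differences were moderate in size. Members at least 1.5-fold below untreated numbered 12 at 6 h, 8 at 12 h and 21 at 24 h, where 12.2%, 14.7% and 15.1% of all genes were, and 0 were 1.5-fold above it at any time (22.2% of all genes). With FPKM the 8 at 12 h were 5 (9.56%). The 24 h library, with its high mitochondrial share, held the lowest treated value of 30 of the 44 members. TPM was therefore also brought to a total that leaves out mitochondrial genes and the 10 most abundant genes of each library. On that scale 40 of the 44 were lower at all 3 times (31.3% of all genes) and 14 were 1.5-fold lower at 24 h (10.7%). The median member stood at -0.44 at 24 h on that scale, where the median of all genes was 0.07. With the 24 h library left out, 43 of 44 were lower at both 6 and 12 h (43.6% of all genes).

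**Figure D2:**
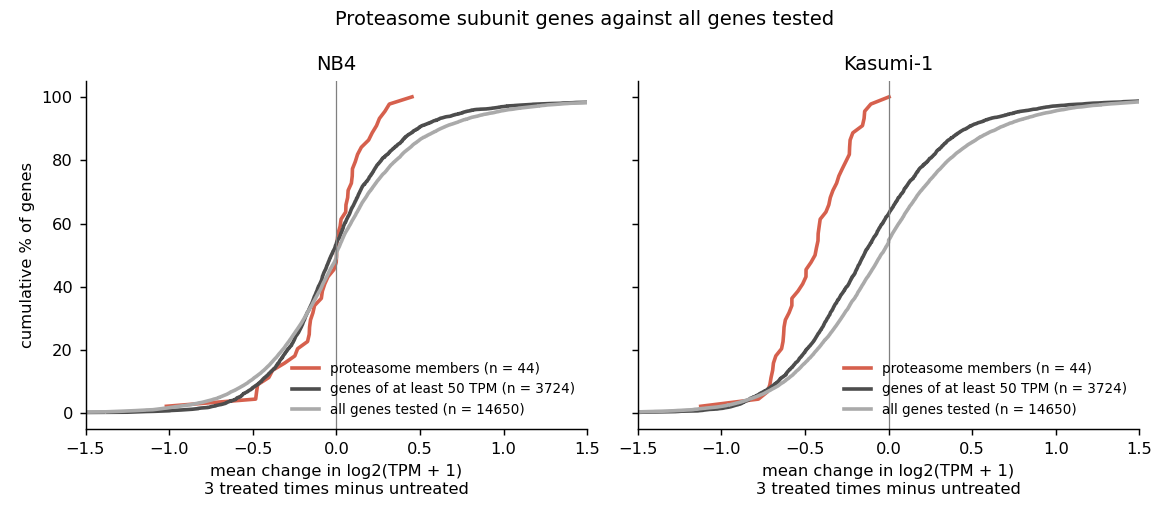
Cumulative percentage of genes (y axis) by mean change in log2(TPM + 1) of the 3 treated times from untreated (x axis), in NB4 (left) and Kasumi-1 (right), for the 44 tested proteasome genes, the 3724 genes of at least 50 TPM and all 14650 genes tested. In NB4 the curves cross near 0, and in Kasumi-1 the curve of the proteasome genes runs left of the others over most of its course and ends near 0.

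No single member passed a test of treatment after adjustment over all genes. The limma fits within a line took its 3 times as repeats and asked for an adjusted p under 0.05. In NB4, 0 of 44 members passed (0.621% of all genes higher and 0.177% lower), while the unadjusted p was under 0.05 for 0 higher (8.30%) and 2 lower (6.86%). In Kasumi-1, 0 of 44 passed (0.205% of all genes higher and 0.109% lower). There the unadjusted p was under 0.05 for 0 higher (8.18%) and 24 lower (12.0%). The 24 became 17 without NB4 at 12 h and 19 to 24 without any other 1 treated library. The count was 20 with FPKM, 21 on the rescaled TPM and 23 to 25 under the other alternatives. The share of members at an unadjusted p under 0.05 was thus above that of all genes in Kasumi-1 only. A difference between the lines needs its own test.

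That test, the NB4 response minus the Kasumi-1 response, passed for 0 of 44 members in limma (0.0887% of all genes higher and 0.0410% lower). The unadjusted p was under 0.05 for 18 members on the higher side (6.37%) and 0 lower (4.22%). The response shared by both lines, fitted with line and time as factors, passed for 0 of 44 (0.0273% of all genes higher and 0.00% lower), while its unadjusted p was under 0.05 for 0 higher (9.30%) and 6 lower (11.1%). Leaving out the untreated library of 1 line rests this fit on the response of the other line alone. Such fits do not check a shared response, so their counts are not given. The count of 6 was 10 when the last NB4 time was dropped and 4 to 6 when any other 1 treated library was. The 18 members of the difference test became 11 without NB4 at 12 h, and 12 to 17 without any other 1 treated library. These p-values measure the spread over times or between lines, not between cultures, and every change rests on the 1 untreated library of its line.

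The promoters of 3 members are shown because these members were furthest from untreated. PSMD12 had the lowest mean of any member in Kasumi-1, PSME2 the highest in NB4 and PSMG4 the lowest in NB4. Each sequence is the 250 bases before the RefSeq gene start on the strand of the gene, at chr17:67366578-67366827 (minus strand), chr14:24146611-24146860 (minus strand) and chr6:3258697-3258946 (plus strand) of GRCh38.p14. Capitals mark the motifs named after them.
PSMD12: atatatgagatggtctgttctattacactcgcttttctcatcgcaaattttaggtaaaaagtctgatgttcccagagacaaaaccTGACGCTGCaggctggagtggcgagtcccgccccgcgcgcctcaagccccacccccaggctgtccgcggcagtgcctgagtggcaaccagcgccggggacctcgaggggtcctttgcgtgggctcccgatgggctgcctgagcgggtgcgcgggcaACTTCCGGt
PSME2: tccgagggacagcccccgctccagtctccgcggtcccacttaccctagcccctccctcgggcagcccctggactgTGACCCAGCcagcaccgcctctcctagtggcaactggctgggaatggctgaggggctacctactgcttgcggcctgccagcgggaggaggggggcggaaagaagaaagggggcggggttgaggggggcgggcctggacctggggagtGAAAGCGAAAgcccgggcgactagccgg
PSMG4: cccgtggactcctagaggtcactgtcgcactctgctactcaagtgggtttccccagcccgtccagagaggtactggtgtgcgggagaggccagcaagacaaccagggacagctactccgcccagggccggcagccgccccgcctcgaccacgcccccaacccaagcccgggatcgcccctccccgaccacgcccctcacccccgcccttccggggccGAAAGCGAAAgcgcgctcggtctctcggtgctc
PSMD12 and PSME2 hold the antioxidant response element core TGACNNNGC, which the factors NFE2L1 and NFE2L2 are known to bind. PSMD12 also holds the ETS site CCGGAAGT on the opposite strand. PSME2 and PSMG4 hold the interferon-stimulated response element core, searched as a pair of GAAA runs with 2 bases between them.

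RefSeq windows from 250 bases before to 50 after the start matched 42 of the 48 members and were searched on both strands. TGACNNNGC was in 15 of the 42 (35.7%), against 13.3% of all 35116 windows. Those windows were not limited to tested genes, so no share here sets members against genes of like level. CCGGAAGT was in 10 (23.8%, against 4.14%), the interferon-stimulated response element core in 7 (16.7%, against 3.57%) and the CCAAT box, searched as CCAAT, in 20 (47.6%, against 34.6%). No motif contains another. The interferon-type motif was added with the sequences in view. PSME2 and PSMG4, which hold it, are among the 7, so that choice can raise its share. Among tested members, the 14 with TGACNNNGC had a median change of -0.01 in NB4 and the 24 without it 0.03. In Kasumi-1 the median change was -0.48 with that motif and -0.42 without it. The 9 with the ETS site had a median change of -0.13 in NB4, against 0.03 for the 29 without it, and -0.37 in Kasumi-1, against -0.46. The 6 with the interferon-type motif had -0.13 in NB4, against 0.00 for the 32 without it, and -0.35 in Kasumi-1, against -0.47. The 18 with the CCAAT box had 0.02 in NB4, against -0.01 for the 20 without it, and -0.47 in Kasumi-1, against -0.39. No test was made of these differences. A match in letters does not show binding.

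The alpha ring forms the outer gate of the core, and its 7 tested genes were below untreated at all 3 times in Kasumi-1 (36.0% of all genes), 4 of them at an unadjusted p under 0.05 (12.0% of all genes). PSMA2 had 255 TPM untreated and 262, 251 and 251 TPM at 6, 12 and 24 h in NB4, whereas in Kasumi-1 it had 229.7 TPM untreated and 133, 136 and 132 TPM at 6, 12 and 24 h. Its 3 treated values lay close together in each line, around the untreated level in NB4 and well below it in Kasumi-1. Of all members PSMA2 had the lowest p in Kasumi-1 (log2 -0.78, SE 0.14, adjusted p = 0.0701 by limma) and in the difference between the responses (log2 0.78, SE 0.19, adjusted p = 0.28).

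PSMA1 and PSMA4 were the extremes of the ring in NB4. PSMA1 had 225 TPM untreated and 282, 273 and 254 TPM at 6, 12 and 24 h in NB4, whereas in Kasumi-1 it had 200.1 TPM untreated and 145, 183 and 144 TPM at 6, 12 and 24 h. PSMA4 had 545 TPM untreated and 593, 363 and 324 TPM at 6, 12 and 24 h in NB4, whereas in Kasumi-1 it had 297 TPM untreated and 285, 214 and 266 TPM at 6, 12 and 24 h. PSMA1 was above untreated at each time in NB4, while PSMA4 was above it at 6 h and below it at 12 and 24 h. PSMA1 overlaps COPB1 on the same strand (151 TPM on average), so the split of reads between them is uncertain.

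PSMA6 and PSMA7 are named after their values were seen. PSMA6 had 342 TPM untreated and 261, 307 and 260.4 TPM at 6, 12 and 24 h in NB4, whereas in Kasumi-1 it had 354 TPM untreated and 165, 256 and 239 TPM at 6, 12 and 24 h. Its Kasumi-1 value at 6 h was the lowest of the ring relative to untreated, and the gene overlaps KIAA0391 on the same strand (34.6 TPM on average). PSMA7 had 541 TPM untreated and 535, 481 and 509 TPM at 6, 12 and 24 h in NB4, whereas in Kasumi-1 it had 534 TPM untreated and 472, 459.9 and 351 TPM at 6, 12 and 24 h. PSMA7 had the highest average of all members. Levels in the ring differed 3.37-fold in untreated NB4 and 4.57-fold in untreated Kasumi-1, with PSMA5 lowest in both. PSMA8, an alpha subunit of the testis, did not reach the filter.

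The beta ring holds the cutting sites, with PSMB5 the chymotrypsin-like, PSMB6 the caspase-like and PSMB7 the trypsin-like subunit. PSMB5 had 96.0 TPM untreated and 101, 100.5 and 100.3 TPM at 6, 12 and 24 h in NB4, whereas in Kasumi-1 it had 102 TPM untreated and 75.3, 84.3 and 66.8 TPM at 6, 12 and 24 h. PSMB6 had 177 TPM untreated and 178, 173 and 180.0 TPM at 6, 12 and 24 h in NB4, whereas in Kasumi-1 it had 156 TPM untreated and 98.5, 117 and 87.3 TPM at 6, 12 and 24 h. PSMB7 had 335 TPM untreated and 342, 344 and 335 TPM at 6, 12 and 24 h in NB4, whereas in Kasumi-1 it had 377 TPM untreated and 301, 316 and 304 TPM at 6, 12 and 24 h. For all 3 the treated NB4 values lay within 10 TPM of untreated, and each treated Kasumi-1 value lay below untreated. PSMB6 differed most in Kasumi-1 (log2 -0.63, SE 0.18, adjusted p = 0.131 by limma).

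The structural beta genes PSMB1 to PSMB4 were also below untreated at each time in Kasumi-1 (36.0% of all genes). PSMB2 had 149.8 TPM untreated and 162, 162 and 148 TPM at 6, 12 and 24 h in NB4, whereas in Kasumi-1 it had 188 TPM untreated and 114, 132 and 103 TPM at 6, 12 and 24 h. PSMB4 had 394 TPM untreated and 468, 402 and 412 TPM at 6, 12 and 24 h in NB4, whereas in Kasumi-1 it had 509 TPM untreated and 405, 506 and 412 TPM at 6, 12 and 24 h. PSMB2 stood furthest below untreated in Kasumi-1 among the 4 and PSMB4 nearest to it, with a 12 h value almost equal to the untreated one. PSMB1 had the mean nearest to untreated in NB4, with 466 TPM untreated and 481, 443 and 484 TPM at 6, 12 and 24 h.

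In the immunoproteasome, which interferon induces and which favours peptides for MHC class I, PSMB8, PSMB9 and PSMB10 replace the cutting subunits. PSMB8 was listed at 0 in all 8 libraries, and PSMB9 in all but NB4 at 6 h (0.0407 TPM). Both lie on chromosome 6 between 28 and 34 Mb, where 106 of 194 protein-coding genes (54.6%) stayed under 0.1 TPM in every library, against 23.1% elsewhere, so these zeros do not show that the transcripts were absent. PSMB10 had 65.8 TPM untreated and 57.5, 44.7 and 49.5 TPM at 6, 12 and 24 h in NB4, whereas in Kasumi-1 it had 40.4 TPM untreated and 28.7, 36.0 and 35.4 TPM at 6, 12 and 24 h. PSMB10, on chromosome 16, was thus below untreated in all 6 treated libraries. PSMB11, of the thymus proteasome, reached at most 0.0787 TPM.

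In the 19S base are the 6 ATPase genes PSMC1 to PSMC6, whose ring unfolds substrates. All 6 were above untreated at all 3 times in NB4 and below it at all 3 times in Kasumi-1 (6.70% of all genes). PSMC4 had 103 TPM untreated and 124, 126 and 127 TPM at 6, 12 and 24 h in NB4, whereas in Kasumi-1 it had 208 TPM untreated and 142, 151 and 117 TPM at 6, 12 and 24 h. PSMC3 had 231 TPM untreated and 246, 241 and 253 TPM at 6, 12 and 24 h in NB4, whereas in Kasumi-1 it had 275 TPM untreated and 182, 183 and 164 TPM at 6, 12 and 24 h. PSMC6 had 95.8 TPM untreated and 104, 102 and 101 TPM at 6, 12 and 24 h in NB4, whereas in Kasumi-1 it had 104 TPM untreated and 80.7, 91.6 and 80.1 TPM at 6, 12 and 24 h. The NB4 differences were small, with means of 0.09 for PSMC6 to 0.29 for PSMC4 in log2(TPM + 1), while in Kasumi-1 the means ran between -0.64 for PSMC3 and -0.31 for PSMC6. The difference between the responses was largest for PSMC4 among them (log2 0.91, SE 0.25, adjusted p = 0.315 by limma), and 5 of the 6 had an unadjusted p under 0.05 on the higher side in that contrast (6.37% of all genes).

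The non-ATPase base genes PSMD1 and PSMD2 encode scaffold subunits and PSMD4 a ubiquitin receptor. PSMD2 had 207 TPM untreated and 190.0, 175 and 187 TPM at 6, 12 and 24 h in NB4, whereas in Kasumi-1 it had 336 TPM untreated and 214, 215 and 191 TPM at 6, 12 and 24 h. PSMD1 had 118 TPM untreated and 122, 123 and 105 TPM at 6, 12 and 24 h in NB4, whereas in Kasumi-1 it had 94.7 TPM untreated and 59.4, 61.4 and 54.6 TPM at 6, 12 and 24 h. Both were at least 1.5-fold below untreated at all 3 times in Kasumi-1, as were PSMA2, PSMC3 and PSMD12, 5 members in all (4.89% of all genes). That count was 3 on the rescaled TPM (3.93%) and 2 with FPKM (3.37%). PSMD2 overlaps EIF2B5 on the same strand (85.2 TPM on average). PSMD4 had 258 TPM untreated and 245, 245 and 241 TPM at 6, 12 and 24 h in NB4, whereas in Kasumi-1 it had 326 TPM untreated and 289.6, 306 and 281 TPM at 6, 12 and 24 h. PSMD4 differed least of the 3 from untreated in Kasumi-1.

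The lid removes ubiquitin chains, and its 8 genes were below untreated at all 3 times in Kasumi-1 (36.0% of all genes). PSMD12 had 82.6 TPM untreated and 95.5, 99.5 and 72.7 TPM at 6, 12 and 24 h in NB4, whereas in Kasumi-1 it had 129.6 TPM untreated and 65.1, 67.7 and 46.6 TPM at 6, 12 and 24 h. Its Kasumi-1 value at 24 h was 35.9% of untreated, the lowest of any tested member in any treated library. PSMD12 lies on chromosome 17, 65334032 to 65362743 (hg19), and its response in Kasumi-1 was log2 -1.12, SE 0.26, adjusted p = 0.09 by limma. PSMD11 had 84.4 TPM untreated and 97.1, 119 and 102 TPM at 6, 12 and 24 h in NB4, whereas in Kasumi-1 it had 102 TPM untreated and 69.1, 70.5 and 64.8 TPM at 6, 12 and 24 h. PSMD11, a scaffold subunit, was thus on opposite sides of untreated in the lines at each time (log2 0.89, SE 0.24, adjusted p = 0.309 for the difference). PSMD14 had 204 TPM untreated and 179.9, 179 and 163 TPM at 6, 12 and 24 h in NB4, whereas in Kasumi-1 it had 147 TPM untreated and 112, 115 and 78.8 TPM at 6, 12 and 24 h. PSMD14, the deubiquitinase of the lid, was below untreated in all 6 treated libraries, and PSMD6 was nearest to untreated in Kasumi-1, with 107 TPM untreated and 101, 103 and 94.6 TPM at 6, 12 and 24 h.

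**Figure D3:**
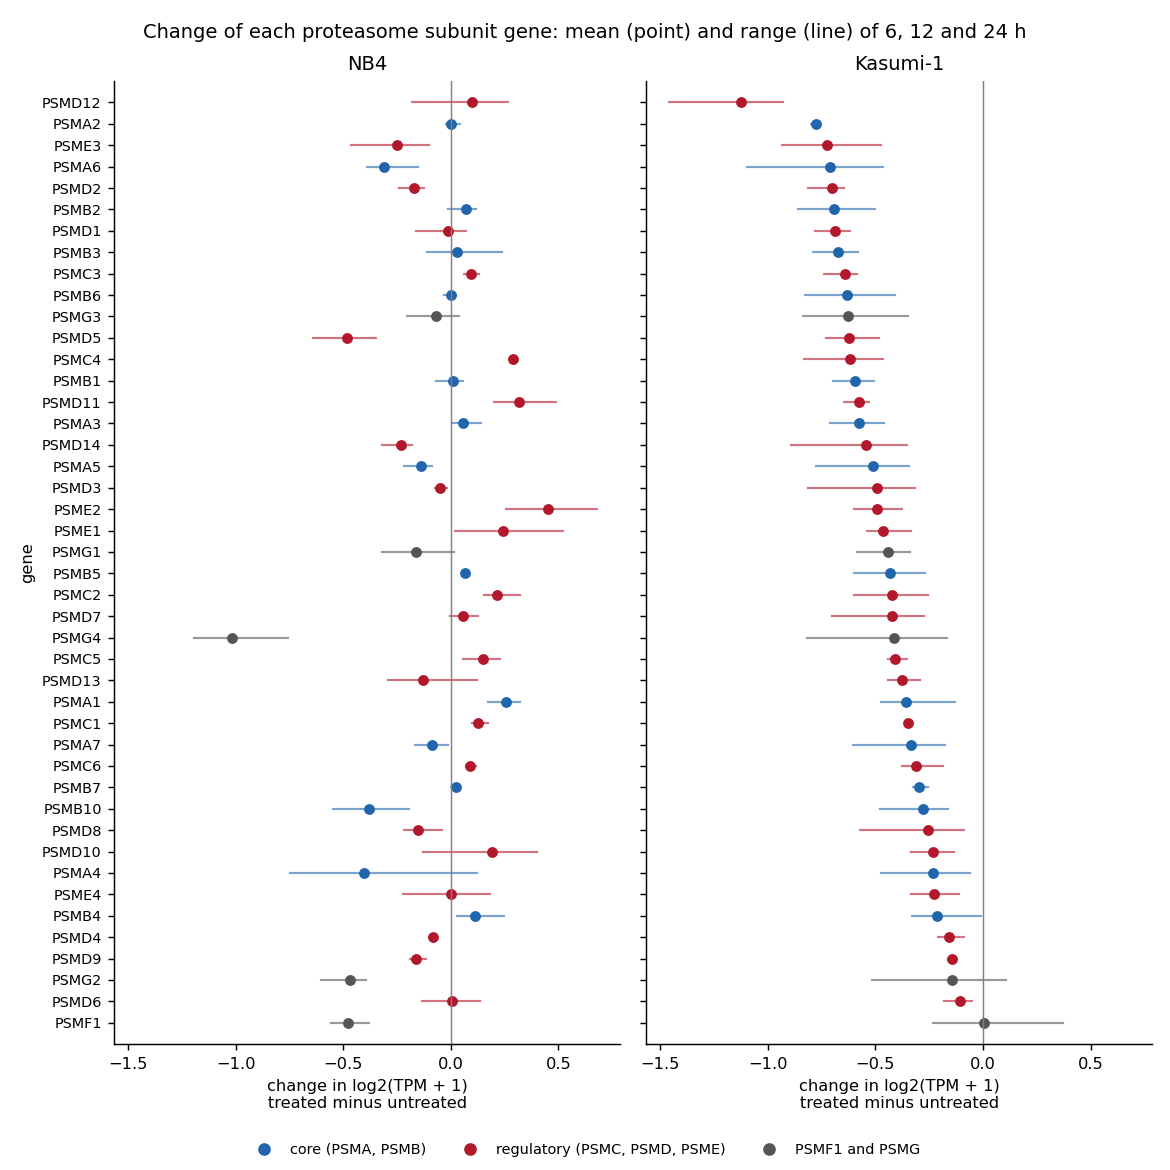
Change in log2(TPM + 1) from the untreated library (x axis) for each of the 44 tested genes (y axis, ordered by the Kasumi-1 mean), in NB4 (left) and Kasumi-1 (right). Points are the mean and lines the range of the 6, 12 and 24 h libraries; PSMG4 lies lowest in NB4, and all genes but PSMG2 and PSMF1 lie wholly below 0 in Kasumi-1.

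PSMD5, PSMD9 and PSMD10 are assembly chaperones of the base. PSMD5 had 33.1 TPM untreated and 25.8, 23.9 and 20.8 TPM at 6, 12 and 24 h in NB4, whereas in Kasumi-1 it had 54.7 TPM untreated and 34.2, 32.6 and 38.9 TPM at 6, 12 and 24 h. It was below untreated in all 6 treated libraries and had the lowest p of any member for the shared response (log2 -0.55, SE 0.15, adjusted p = 0.134 by limma). PSMD5 overlaps PSMD5-AS1 on the opposite strand (33.6 TPM on average), and a strand-specific preparation is not given in the sources used here. PSMD9 had 46.9 TPM untreated and 43.2, 41.4 and 41.0 TPM at 6, 12 and 24 h in NB4, whereas in Kasumi-1 it had 41.0 TPM untreated and 37.5, 36.8 and 36.4 TPM at 6, 12 and 24 h. PSMD10 had 50.9 TPM untreated and 67.5, 63.3 and 46.4 TPM at 6, 12 and 24 h in NB4, whereas in Kasumi-1 it had 55.3 TPM untreated and 50.2, 46.9 and 43.6 TPM at 6, 12 and 24 h. PSMD9 differed least of the 3 in Kasumi-1, and PSMD10 was the one with 6 and 12 h values above untreated in NB4.

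The PA28 cap genes PSME1 and PSME2, which interferon is known to induce with the immunoproteasome, were the members furthest above untreated at 24 h in NB4. PSME1 had 188 TPM untreated and 190.3, 214 and 269.9 TPM at 6, 12 and 24 h in NB4, whereas in Kasumi-1 it had 243 TPM untreated and 169, 167 and 192 TPM at 6, 12 and 24 h. PSME2 had 80.6 TPM untreated and 96.5, 108 and 129.9 TPM at 6, 12 and 24 h in NB4, whereas in Kasumi-1 it had 86.4 TPM untreated and 56.7, 66.3 and 60.6 TPM at 6, 12 and 24 h. Both were highest at 24 h in NB4, and no treated Kasumi-1 value reached the untreated one. For PSME2 (chromosome 14, 24612574 to 24616779, hg19) the NB4 response was log2 0.45, SE 0.20, adjusted p = 0.337, and the difference from the Kasumi-1 response was log2 0.95, SE 0.28, adjusted p = 0.336 by limma. PSME2 was the 1 member at least 1.5-fold above untreated at any time in NB4 (20.2% of all genes).

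The other caps are PSME3 (PA28 gamma, of the nucleus) and PSME4 (PA200). PSME3 had 223 TPM untreated and 197, 208 and 162 TPM at 6, 12 and 24 h in NB4, whereas in Kasumi-1 it had 211 TPM untreated and 151, 124 and 109.7 TPM at 6, 12 and 24 h. PSME4 had 40.6 TPM untreated and 41.8, 46.2 and 34.7 TPM at 6, 12 and 24 h in NB4, whereas in Kasumi-1 it had 50.1 TPM untreated and 39.5, 42.1 and 46.2 TPM at 6, 12 and 24 h. PSME3 was below untreated in all 6 treated libraries, and its Kasumi-1 values were lower at each later time. PSME3 overlaps BECN1 on the opposite strand (73.2 TPM on average).

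PSMG3 and PSMG4 form one of the chaperone pairs of the 20S core. PSMG4 had 67.2 TPM untreated and 39.3, 28.8 and 30.9 TPM at 6, 12 and 24 h in NB4, whereas in Kasumi-1 it had 23.6 TPM untreated and 20.9, 19.5 and 13.0 TPM at 6, 12 and 24 h. PSMG4 (chromosome 6, 3231637 to 3303607, hg19) was the 1 member at least 1.5-fold below untreated at all 3 times in NB4 (3.37% of all genes), with a response of log2 -1.02, SE 0.29, adjusted p = 0.185 by limma. PSMG3 had 132 TPM untreated and 128, 115 and 136 TPM at 6, 12 and 24 h in NB4, whereas in Kasumi-1 it had 51.5 TPM untreated and 40.2, 28.4 and 31.4 TPM at 6, 12 and 24 h. PSMG3 stayed near untreated in NB4 at 6 and 24 h and was below it at each time in Kasumi-1.

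PSMG1 and PSMG2 form the other chaperone pair. PSMG1 had 137 TPM untreated and 121, 109.7 and 138 TPM at 6, 12 and 24 h in NB4, whereas in Kasumi-1 it had 107 TPM untreated and 84.4, 81.0 and 71.0 TPM at 6, 12 and 24 h. PSMG2 had 99.1 TPM untreated and 75.0, 64.9 and 74.2 TPM at 6, 12 and 24 h in NB4, whereas in Kasumi-1 it had 98.8 TPM untreated and 106, 68.8 and 97.5 TPM at 6, 12 and 24 h. PSMG2 was below untreated at each time in NB4, and in Kasumi-1 its 6 h value exceeded the untreated one. PSMF1 had 88.9 TPM untreated and 60.0, 63.0 and 68.0 TPM at 6, 12 and 24 h in NB4, whereas in Kasumi-1 it had 58.4 TPM untreated and 53.3, 49.5 and 75.9 TPM at 6, 12 and 24 h. PSMF1 was below untreated at each time in NB4, and at 24 h it was the 1 member above untreated in Kasumi-1.

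Core and regulatory genes were also compared as sums. In NB4 core genes summed to 4271 TPM untreated and 4459, 3990 and 3969 TPM at 6, 12 and 24 h, and regulatory genes to 3736 TPM untreated and 3788, 3850 and 3803 TPM. In Kasumi-1 the core sum was 4103 TPM untreated and 2953, 3214 and 2827 TPM at those times, and the regulatory sum was 4034 TPM untreated and 3026, 3061 and 2689 TPM. The ratio of core to regulatory TPM stayed between 0.976 (Kasumi-1 at 6 h) and 1.18 (NB4 at 6 h). In Kasumi-1 the median core gene stood at -0.48, -0.41 and -0.60 from untreated in log2(TPM + 1), and the median regulatory gene at -0.39, -0.35 and -0.54. The core median minus the regulatory median averaged -0.03 over the 3 times in NB4 (SD 0.06) and -0.07 in Kasumi-1 (SD 0.02). In Kasumi-1 the core median was thus the lower one at each of the 3 times, but the sums did not keep that order. Relative to untreated Kasumi-1, the core sum was 72.0%, 78.4% and 68.9% at 6, 12 and 24 h. The regulatory sum was 75.0%, 75.9% and 66.7%, so it was the lower one at 12 and 24 h.

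**Figure D4:**
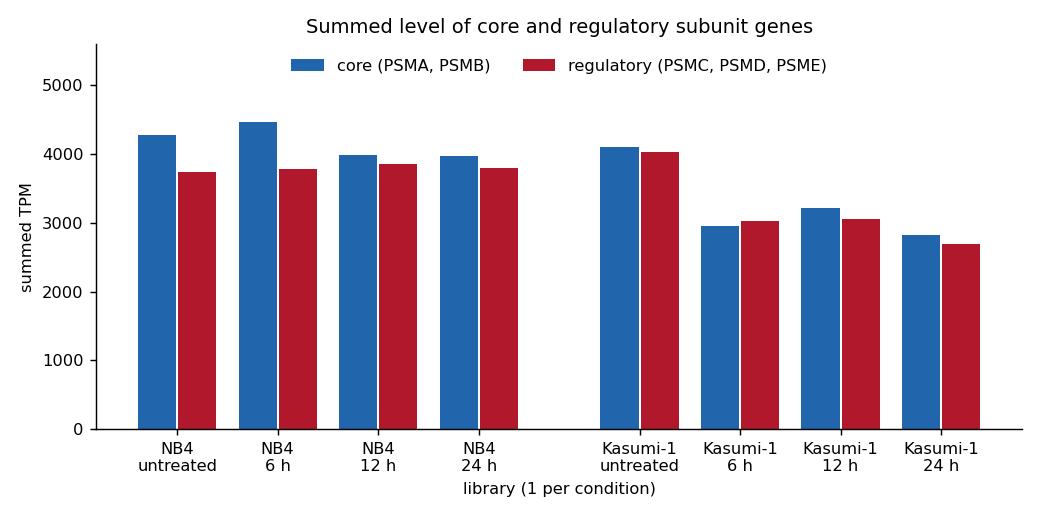
Summed TPM (y axis) of the core genes (PSMA, PSMB) and the regulatory genes (PSMC, PSMD, PSME) in each of the 8 libraries (x axis). In NB4 the sums lie between 3736 and 4459 TPM, and in Kasumi-1 all treated sums (2689 to 3214 TPM) lie below the untreated ones (4034 and 4103 TPM).

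Between the lines, 20 of 44 members were higher and 2 lower in NB4 than in Kasumi-1 over the 4 matched conditions (limma with time as a factor, adjusted p under 0.05), where 27.5% and 27.8% of all genes were. This contrast averages untreated and treated libraries. In the untreated pair the median member differed by 0.01 in log2(TPM + 1), with 23 of 44 higher in NB4 (47.4% of all genes). At 6, 12 and 24 h the median was 0.51, 0.41 and 0.56, and 37, 36 and 36 members were higher in NB4 (48.5%, 53.5% and 50.2% of all genes).

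Some members were higher in NB4 in every pair, untreated included. PSMG3 had the lowest p (log2 1.76, SE 0.15, adjusted p = 9.7e-05 by limma), with 132 TPM in NB4 against 51.5 TPM in Kasumi-1 untreated. PSMD7, a lid subunit, followed (log2 1.03, SE 0.14, adjusted p = 8.8e-04). PSMD7 had 232 TPM untreated and 232, 254 and 239 TPM at 6, 12 and 24 h in NB4, whereas in Kasumi-1 it had 145 TPM untreated and 119, 119.8 and 88.9 TPM at 6, 12 and 24 h. PSMG4 (log2 1.02, SE 0.17, adjusted p = 0.00251), PSMD14 (log2 0.70, SE 0.12, adjusted p = 0.00292) and PSMA5 (log2 0.75, SE 0.14, adjusted p = 0.00337) came next, also by limma. PSMD1, PSMA4, PSMD13, PSMC2 and PSMA2 completed the 10 lowest p-values on that side, with log2 differences of 0.61 to 0.82 and limma adjusted p between 0.00338 and 0.00756. The 2 members lower in NB4 were PSMD5 (log2 -0.60, SE 0.13, adjusted p = 0.00785) and PSMD4 (log2 -0.28, SE 0.10, adjusted p = 0.0464). PSMD4 lost its call when any 1 of the 8 libraries was left out, with adjusted p up to 0.157 by limma.

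**Figure D5:**
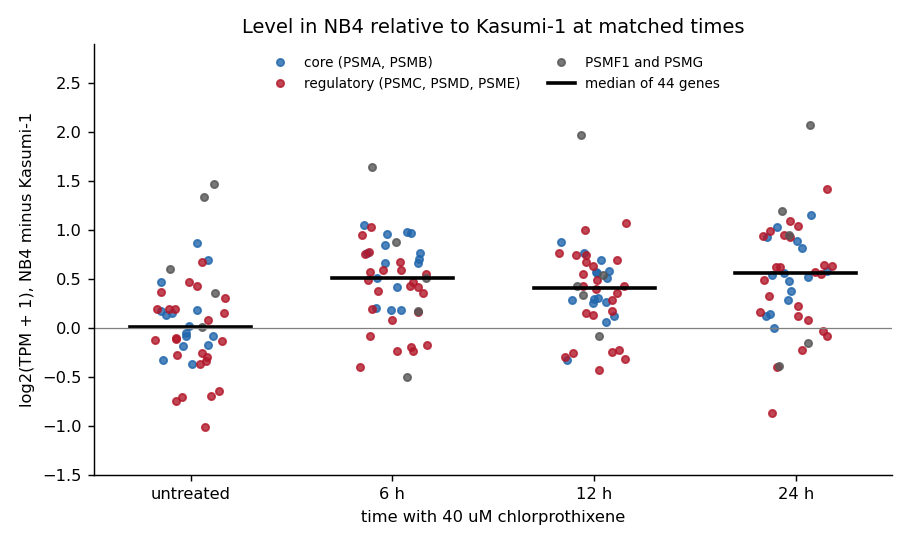
Level in NB4 relative to Kasumi-1, as the difference of log2(TPM + 1) (y axis), at matched conditions (x axis), with 1 point per tested gene and a bar at the median of the 44. The median is 0.01 untreated and 0.51, 0.41 and 0.56 at 6, 12 and 24 h.

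Genes that act with the proteasome but carry other names were counted from lists. Of 12 proteasome-bound proteins, 4 were above and 5 below untreated at all 3 times in NB4 (30.6% and 32.2% of all genes), and 0 above and 6 below in Kasumi-1 (28.2% and 36.0%). TXNL1, a thioredoxin-like protein bound to the 19S particle, fell in NB4 (log2 -1.39, SE 0.23, adjusted p = 0.0493 by limma). Of all genes, 0.177% were called lower in NB4. The TXNL1 call was lost under 7 of 11 alternatives (adjusted p up to 0.155), among them leaving out any 1 treated library of either line. In Kasumi-1 0 of the 12 passed (4 lower at an unadjusted p under 0.05, as were 12.0% of all genes). TXNL1 had 48.8 TPM untreated and 19.5, 19.9 and 14.9 TPM at 6, 12 and 24 h in NB4, whereas in Kasumi-1 it had 27.6 TPM untreated and 29.3, 24.7 and 22.8 TPM at 6, 12 and 24 h. POMP had 220.4 TPM untreated and 296, 323 and 316 TPM at 6, 12 and 24 h in NB4, whereas in Kasumi-1 it had 108 TPM untreated and 75.0, 93.0 and 78.8 TPM at 6, 12 and 24 h. POMP, the maturation factor of the core, was thus on opposite sides of untreated in the lines, as the ATPase genes were. SHFM1 had 167 TPM untreated and 192, 174 and 219 TPM at 6, 12 and 24 h in NB4, whereas in Kasumi-1 it had 185 TPM untreated and 125, 119 and 120.0 TPM at 6, 12 and 24 h. SHFM1, a small lid subunit now named SEM1, followed the same course. UCHL5 had 138 TPM untreated and 98.7, 102 and 86.6 TPM at 6, 12 and 24 h in NB4, whereas in Kasumi-1 it had 80.1 TPM untreated and 56.8, 52.3 and 52.3 TPM at 6, 12 and 24 h. UCHL5, a deubiquitinase of the 19S particle, was below untreated in all 6 treated libraries.

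In the NRF1 pathway, NFE2L1 encodes the factor NRF1, which is known to drive proteasome genes, VCP helps to extract it from the endoplasmic reticulum, and small MAF proteins pair with it. Of its 10 tested genes, 6 were above untreated at all 3 times in NB4 (30.6% of all genes) and 5 in Kasumi-1 (28.2%). MAFG rose in Kasumi-1 (log2 1.46, SE 0.21, adjusted p = 0.0473 by limma), where 0.205% of all genes were called higher. The MAFG call was lost under 6 of 12 alternatives (adjusted p up to 0.135), among them leaving out any 1 treated library but Kasumi-1 at 24 h. MAFG had 30.3 TPM untreated and 70.7, 75.5 and 65.1 TPM at 6, 12 and 24 h in NB4, whereas in Kasumi-1 it had 21.2 TPM untreated and 71.8, 51.4 and 58.5 TPM at 6, 12 and 24 h. NFE2L1 had 73.8 TPM untreated and 153, 139 and 148 TPM at 6, 12 and 24 h in NB4, whereas in Kasumi-1 it had 129 TPM untreated and 224, 177 and 129 TPM at 6, 12 and 24 h. NFE2L1 was thus well above untreated at each time in NB4 and at 6 and 12 h in Kasumi-1. At 24 h in Kasumi-1 NFE2L1 was near untreated. Its part in the levels of the proteasome genes was not tested. VCP had 540.5 TPM untreated and 534, 537 and 511 TPM at 6, 12 and 24 h in NB4, whereas in Kasumi-1 it had 526 TPM untreated and 325, 355 and 286 TPM at 6, 12 and 24 h. VCP followed the pattern of the subunits, near untreated in NB4 and below it in Kasumi-1 (log2 -0.71, SE 0.17, adjusted p = 0.0912 by limma). MAFF had 2.62 TPM untreated and 6.30, 10.6 and 12.2 TPM at 6, 12 and 24 h in NB4, whereas in Kasumi-1 it had 2.30 TPM untreated and 11.7, 9.31 and 2.93 TPM at 6, 12 and 24 h.

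Of 12 genes for ubiquitin and its activation and transfer, 1 was called lower in Kasumi-1 (0.109% of all genes). At an unadjusted p under 0.05, 3 of the 12 were lower there (12.0%). The called gene was UBE2K, an E2 enzyme (log2 -1.85, SE 0.22, adjusted p = 0.032 by limma). That call was lost under 4 of 12 alternatives (adjusted p up to 0.135). They leave out Kasumi-1 at 6 or 12 h or NB4 at 6 or 24 h. UBE2K had 45.8 TPM untreated and 56.7, 79.0 and 58.3 TPM at 6, 12 and 24 h in NB4, whereas in Kasumi-1 it had 115 TPM untreated and 33.7, 31.2 and 28.8 TPM at 6, 12 and 24 h. UBE2K was above untreated at each time in NB4. UBA1 had 370.1 TPM untreated and 326, 299.5 and 281 TPM at 6, 12 and 24 h in NB4, whereas in Kasumi-1 it had 352 TPM untreated and 239.8, 233 and 219 TPM at 6, 12 and 24 h. UBA1, the main E1 enzyme, was below untreated in all 6 treated libraries. Of 13 shuttle receptors and p97 cofactors, 0 passed in either line by limma (1 higher in NB4 and 1 lower in Kasumi-1 at an unadjusted p under 0.05, near or below the 8.30% and 12.0% of all genes). NPLOC4 had 61.7 TPM untreated and 95.2, 113 and 91.3 TPM at 6, 12 and 24 h in NB4, whereas in Kasumi-1 it had 153 TPM untreated and 135, 140.1 and 119.7 TPM at 6, 12 and 24 h.

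Of 15 genes of MHC class I antigen processing, which takes up the peptides the proteasome makes, 11 were tested and 0 passed in either line by limma (2 higher in NB4 and 2 higher in Kasumi-1 at an unadjusted p under 0.05, against 8.30% and 8.18% of all genes). The HLA genes, TAP1 and TAPBP lie in the chromosome 6 stretch described for PSMB8, so their levels are uncertain too. ERAP1 had 9.71 TPM untreated and 15.8, 23.9 and 23.8 TPM at 6, 12 and 24 h in NB4, whereas in Kasumi-1 it had 43.1 TPM untreated and 49.3, 42.4 and 45.8 TPM at 6, 12 and 24 h. ERAP1 trims peptides in the endoplasmic reticulum. TAPBP, which encodes tapasin of the loading complex, was above untreated in all 6 treated libraries, by 0.83 on average in NB4 and 0.47 in Kasumi-1 in log2(TPM + 1). TAP1, whose record overlaps that of PSMB9, was listed at 0 in every library. NLRC5 had 59.8 TPM untreated and 40.3, 37.2 and 43.0 TPM at 6, 12 and 24 h in NB4, whereas in Kasumi-1 it had 45.8 TPM untreated and 20.6, 21.6 and 41.5 TPM at 6, 12 and 24 h. NLRC5, an activator of class I genes, was below untreated at each time in both lines. Of 12 genes of cytosolic protein quality control, HSPA1A rose in the shared response (log2 2.24, SE 0.18, adjusted p = 0.0363 by limma). SQSTM1 rose in NB4 (log2 2.54, SE 0.29, adjusted p = 0.0147 by limma). Of all genes, 0.0273% were called higher in the shared response and 0.621% in NB4. At an unadjusted p under 0.05, 6 of the 12 were higher in the shared response (9.30% of all genes). In NB4 6 were higher (8.30%) and 1 lower (6.86%), and in Kasumi-1 3 were higher (8.18%). The HSPA1A call was lost under 8 of 14 alternatives (adjusted p up to 0.183), among them leaving out untreated NB4 or the 6 or 12 h library of either line, and HSPA1A shares nearly all its coding sequence with HSPA1B, so the split of reads is uncertain. That call was also lost with FPKM, with a pseudocount of 0.1 and with no filter on low values. Without untreated NB4 it rests on Kasumi-1 alone. HSPA1A levels were low, with 0.977 TPM untreated and 12.3, 8.57 and 5.80 TPM at 6, 12 and 24 h in NB4. In Kasumi-1 it had 4.29 TPM untreated and 32.7, 28.3 and 13.7 TPM at those times. HSPA1A also lies in the chromosome 6 stretch described for PSMB8. The SQSTM1 call was lost under 3 of 12 (adjusted p up to 0.0724), which are no filter on low values and leaving out the 12 h library of either line. SQSTM1 had 74.8 TPM untreated and 315, 490 and 555 TPM at 6, 12 and 24 h in NB4. In Kasumi-1 it had 133 TPM untreated and 389, 390 and 361 TPM at those times (log2 1.51, SE 0.29). SQSTM1 was thus above untreated in all 6 treated libraries, and its rise was not particular to NB4. The median of the quality control list relative to untreated was 1.46, 1.09 and 0.69 in log2(TPM + 1) at 6, 12 and 24 h in NB4, and 0.61, 0.52 and -0.22 in Kasumi-1.

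Of the 48 members, 29 overlap another gene record in the tables and 16 overlap one of at least 5 TPM on average, so their levels can hold reads of a neighbour.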

How the data were processed

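The submitters' processing notes name HISAT2, StringTie and hg19; for the versions, settings and gene annotation the sources used here give nothing. Per the labels' protocols, RNA was DNase-treated and prepared with an Illumina TruSeq kit. Each of the 8 deposited tables gives TPM, FPKM and coverage (a signal, the average depth over a gene) per the file headers; FPKM served as an alternative. No pair of libraries was identical. Titles gave line and time.

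Values were summed by gene name (PSMA1 and PSMA2 have 2 gene IDs each). Names with a mean of at least 1 TPM were fitted as log2(TPM + 1), which understates folds of low genes, with limma 3.58.1 in R 4.3.3 (eBayes with trend, two-sided, Benjamini-Hochberg over all 14650 genes). The shared response and line difference used line and time as factors (3 residual degrees of freedom); responses within a line and their difference used line by treatment with times as repeats (4 residual degrees of freedom). The fits were checked on simulated data with independent noise and the same change at every treated time. Real times differ, so that check does not bear on the p-values given here. Single libraries were compared without a test. Gene types came from GENCODE 29 (90.5% of gene IDs matched) and promoters from RefSeq on GRCh38.p14, not converted to hg19. Python 3.11.15 with pandas 2.3.3, numpy 2.4.6 and matplotlib 3.10.9 did the rest.

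The members, lists and tests were chosen with earlier results of these data known. Named with values were the cutting and immunoproteasome subunits, caps, PSMF1, PSMG genes, called members (at most 10 per test and direction), the extremes of each role group, and called or most-different list genes. Alternatives were another pseudocount, FPKM, rescaled TPM, other filters, times as repeats in the shared fit, and each library left out.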

Additional observations from a re-analysis of the deposited data

How the results depend on the processing

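The shared, NB4, Kasumi-1 and difference tests called 0 members, and also with a pseudocount of 0.1, FPKM, TPM rescaled without mitochondrial and the 10 most abundant genes, means of at least 5 or 50 TPM, and single libraries left out; the shared test with times as repeats called 0 too. The filter at 50 TPM and the counts without the Kasumi-1 library of 24 h were chosen after seeing the data. With no filter on low values, the Kasumi-1 test called 1 member lower and the difference test 1 member higher, PSMA2 in both (limma adjusted p = 0.00518 and 0.0131), and the line difference called 5 members in place of 22; the cause was not tested. The line difference called 15 to 28 members with 1 library left out and 19 to 23 under the other alternatives. Over all genes, the shared test called 4 higher and 0 lower, but 78 and 55 with times as repeats and 0 and 0 with a pseudocount of 0.1. The average of the median member change was -0.0029 in NB4, between -0.02 and 0.01 under the alternatives, and -0.45 in Kasumi-1, between -0.49 and -0.38. Core minus regulatory change was -0.03 in NB4, between -0.06 and 0.00, and -0.07 in Kasumi-1, where it was 0.035 with no filter, which adds core genes listed near 0, and between -0.08 and -0.06 otherwise. Tests within a line could not be run without its untreated library, and the shared test then rests on the other line alone. No paired analysis was possible because the labels give no replicate numbers to block on; the shared response and line difference already set the lines side by side within each time. The unknown depth limits what can be said of PSMA8, PSMB8, PSMB9 and PSMB11.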
